A study of Mus musculus with 24 samples.

Results

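The collagen genes are the genes whose single annotated symbol is Col, a number, a and a number, such as Col1a1. On the arrays used here 36 of 12393 genes met that rule, and all 36 identifiers stood in the RefSeq gene table. For a gene with several probe sets, which are groups of short probes for the same gene, the one with the highest mean log2 level over the 24 arrays was used. The 36 genes were divided into 9 fibrillar, 6 basement membrane and 21 other collagens. The last class held 9 fibril-associated collagens with interrupted triple helices (FACIT), 3 chains of type VI, 3 transmembrane collagens, 2 multiplexins, 2 network-forming collagens, 1 anchoring collagen and Col26a1.

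Collagens are secreted proteins whose chains wind into a triple helix, and they carry most of the tensile strength of tissue. In the lung, types I and III form the fibrils of airway walls, vessels and pleura, with type V built into the same fibrils. Type IV forms sheets in the basement membranes beneath epithelium and endothelium, and the networks of both kinds are made mainly by fibroblasts, smooth muscle, epithelial and endothelial cells.

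Whole lung RNA of 24 female BALB/C mice aged 8 to 10 weeks was measured, 1 Affymetrix array per mouse, in 8 groups of 3. The groups received saline, 20 ug ovalbumin (OVA, an egg white protein used as a model allergen), 150 ug of diesel exhaust particles (DEP, soot from engine exhaust) of the kinds NDEP, ADEP or CDEP, or each of these particles together with OVA. Instillation into the nose took place on days 0 and 13 and the lungs were taken 18 hours after the last dose. The series title calls the particle samples chemically distinct, and the labels mark the 4 groups with OVA, including the group titled Saline/OVA and called OVA here, as sensitized and the other 4 as not. Whole lung RNA cannot tell fewer cells of a type from less RNA per cell.

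Normalized array medians lay between 72.2 and 75.5 intensity units, and precision is set by having 3 arrays a group. Genes of alveolar type 2 cells, which make surfactant, had a mean level of 11.84 to 12.64 log2 on every array. Levels are log2 intensities, differences are log2 fold changes with their SE after ±, and a gene was called changed at an adjusted p below 0.05 in limma over all 12393 genes. A gene is termed dim in a group where its mean lay below the 25th percentile of each of the group's arrays, 4.45 to 4.64 log2 over all arrays, and is then not shown to lie above background. Levels of different genes come from different probes and are not compared with each other. The comparisons share control arrays, since the 3 saline arrays serve each particle alone and the 3 OVA arrays each particle with OVA.

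Of the 36 collagen genes 28 were dim in no group, and 5 were dim in all 8 groups: Col11a1, Col19a1, Col22a1, Col26a1 and Col9a2. The range of the 8 group means had a median of 0.33 log2 over the collagen genes and of 0.30 log2 over all genes. It was 0.41 for the fibrillar, 0.33 for the basement membrane and 0.31 for the other collagens. The FACIT gene Col14a1 had the widest range of the 36, 0.90 log2 or 1.86-fold, from CDEP with OVA at 6.64 ± 0.33 (SD, n = 3) to saline at 7.53 ± 0.41. Across 18 comparisons 6 collagen genes passed the test in at least 1 and 30 passed in none, and 7 of 648 tests of a gene in a comparison passed. The 6 were the fibrillar Col1a1, Col5a1 and Col5a3, the basement membrane chain Col4a5, the FACIT Col14a1 and the multiplexin Col18a1.

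**Figure D1:**
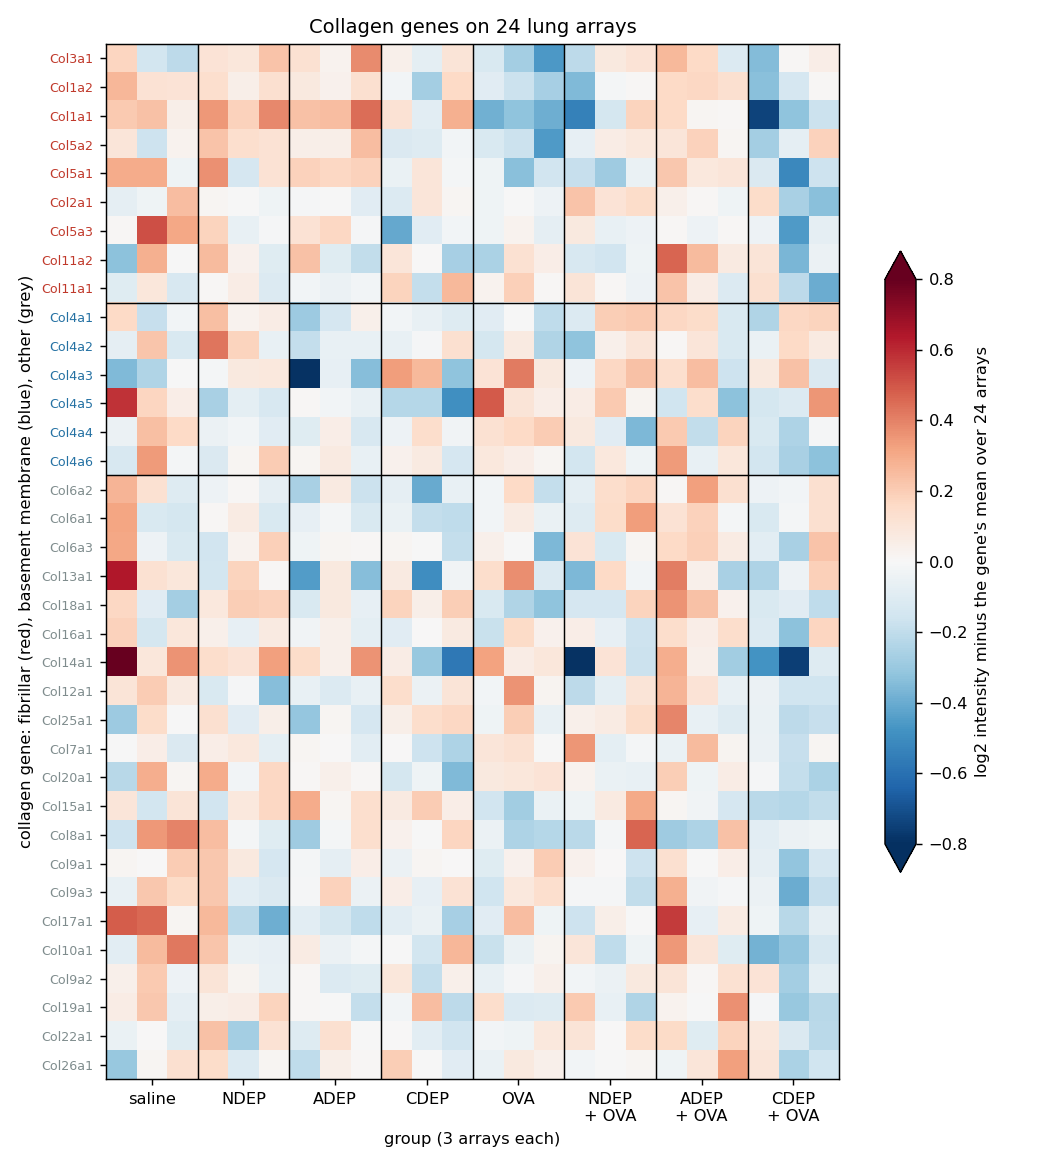
Heat map of 36 collagen genes (vertical axis, by class) on 24 lung arrays (horizontal axis, 3 per group). Colour is the log2 intensity minus the gene's mean over all arrays, cut at 0.8 in either direction. Col1a1 is mostly red without OVA and blue in the groups OVA and CDEP with OVA, and most genes are blue on the second and the third array of CDEP with OVA.

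The promoters of Col1a2, Col3a1, Col5a1 and Col4a5 are shown. Col5a1 and Col4a5 passed the test in an average described below, while Col1a2 and Col3a1 passed in no comparison and are shown as the partner chain of Col1a1 and as the type III chain of the same fibrils. The RefSeq promoter table held a window for 27 of the 36 genes. The sequences are from RefSeq on mouse build GRCm38.p6, all on the + strand, and end at the base before the gene's annotated start. Col1a2 lies at chr6:4505368-4505617, Col3a1 at chr1:45311288-45311537, Col5a1 at chr2:27886175-27886380 and Col4a5 at chrX:141475169-141475369. Capitals mark 3 motifs searched on both strands. The first is the CCAAT box. Another is the core of a GC box, GGGCGG, which shows as its reverse complement where it lies on the opposite strand. The last is TATAAA, a form of the motif that positions the start of transcription.
Col1a2: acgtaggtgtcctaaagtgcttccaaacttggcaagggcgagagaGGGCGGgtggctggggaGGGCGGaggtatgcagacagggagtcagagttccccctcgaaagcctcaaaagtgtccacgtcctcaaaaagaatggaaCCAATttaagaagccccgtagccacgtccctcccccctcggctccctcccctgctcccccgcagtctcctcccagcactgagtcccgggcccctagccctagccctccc
Col3a1: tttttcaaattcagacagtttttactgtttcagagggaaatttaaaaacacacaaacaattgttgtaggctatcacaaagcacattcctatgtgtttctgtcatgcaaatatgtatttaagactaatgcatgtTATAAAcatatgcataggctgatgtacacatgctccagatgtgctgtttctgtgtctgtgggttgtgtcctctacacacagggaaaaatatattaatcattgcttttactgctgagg
Col5a1: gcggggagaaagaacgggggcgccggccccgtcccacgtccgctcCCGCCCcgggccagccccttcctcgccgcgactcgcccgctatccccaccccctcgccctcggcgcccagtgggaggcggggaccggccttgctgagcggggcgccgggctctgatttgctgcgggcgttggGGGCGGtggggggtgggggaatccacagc
Col4a5: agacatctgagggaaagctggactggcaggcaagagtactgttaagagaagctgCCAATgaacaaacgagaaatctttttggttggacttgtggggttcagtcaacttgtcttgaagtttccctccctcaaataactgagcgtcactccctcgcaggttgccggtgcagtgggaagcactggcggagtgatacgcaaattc
The Col1a2 window held 1 CCAAT, 109 bases before the start, and 2 GGGCGG. In the Col3a1 window there was 1 TATAAA 117 bases before the start, in that of Col5a1 2 GGGCGG, and in that of Col4a5 1 CCAAT. Among all 32851 promoter windows of the table, the CCAAT box stood in 33.8%, GGGCGG in 32.7% and TATAAA in 12.4%, as they did in the windows of 12, 15 and 5 of the 27 collagen genes. The motifs do not overlap each other in the windows printed, and a match describes the letters and is not a binding site.

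Among the collagen genes, the fibrillar Col1a1 and Col5a1 fell in lungs given OVA. Averaged over the 4 backgrounds, saline, NDEP, ADEP and CDEP, the type I chain Col1a1 fell 1.36-fold and the type V chain Col5a1 fell 1.19-fold. With all 36 genes counted, 0 were called higher and 2 lower, beside 2.47% of all 12393 genes called in either direction, 0.912% higher and 1.56% lower. At an unadjusted p below 0.05 stood 7 of the 36, beside 15.4% of all genes. Of the 9 fibrillar genes 8 lay below 0, beside 53.5% of all genes, with a median of -0.11 beside -0.01 for all genes and for all 36 collagens. The 8 included Col2a1 at -0.01 and Col11a1, which rounds to 0.00 and was dim in all 8 groups. Type IV chains and the other collagens had no call, with medians of 0.02 and 0.00.

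Col1a1 (Entrez gene 12842) encodes the chain present as 2 copies in each type I molecule. Without OVA, Col1a1 measured 9.85, 9.88 and 9.69 log2 in saline, 9.99, 9.83 and 10.03 in NDEP, 9.88, 9.89 and 10.09 in ADEP, and 9.76, 9.56 and 9.93 in CDEP. With OVA, Col1a1 measured 9.26, 9.32 and 9.25 in the OVA group, 9.10, 9.50 and 9.82 in NDEP with OVA, 9.80, 9.66 and 9.65 in ADEP with OVA, and 8.90, 9.32 and 9.47 in CDEP with OVA. In each of the 4 backgrounds every array with OVA lay below every array without it, narrowly so for NDEP. The lowest, median and highest of the 12 arrays with OVA were 8.90, 9.40 and 9.82, against 9.56, 9.88 and 10.09 without OVA. The differences between the group means were -0.53 in saline, -0.48 in NDEP, -0.25 in ADEP and -0.52 in CDEP, each ± 0.14. Averaged, Col1a1 fell by 0.45 ± 0.07 (95% interval -0.59 to -0.30, limma adjusted p = 0.000869). This call was kept with each of the 24 arrays left out, at -0.49 to -0.40, and was lost with the heart muscle and fat marker scores as covariates, at -0.41 (adjusted p = 0.0795). None of the interactions of a particle with OVA passed for Col1a1, the difference being 0.28 ± 0.20 for ADEP, with a 95% interval from -0.14 to 0.70 (limma adjusted p = 0.654).

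The partner chain Col1a2 completes the type I molecule. Without OVA, Col1a2 measured 11.74, 11.59 and 11.58 log2 in saline, 11.61, 11.52 and 11.60 in NDEP, 11.55, 11.51 and 11.60 in ADEP, and 11.45, 11.20 and 11.63 in CDEP. With OVA, Col1a2 measured 11.38, 11.30 and 11.21 in the OVA group, 11.12, 11.46 and 11.48 in NDEP with OVA, 11.63, 11.64 and 11.60 in ADEP with OVA, and 11.14, 11.34 and 11.48 in CDEP with OVA. Arrays with OVA lay below those without it in the saline and NDEP backgrounds and overlapped them in the ADEP and CDEP backgrounds. On average the difference was -0.15 ± 0.05 and did not pass (limma adjusted p = 0.165). In ADEP-exposed lungs OVA left Col1a2 near its level without OVA, and the ADEP by OVA interaction was 0.41 ± 0.16 (limma adjusted p = 0.364).

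Col5a1 (Entrez gene 12831) encodes a chain of type V collagen, which starts fibrils and limits their diameter. Without OVA, Col5a1 measured 8.60, 8.60 and 8.27 log2 in saline, 8.67, 8.17 and 8.42 in NDEP, 8.49, 8.47 and 8.49 in ADEP, and 8.25, 8.40 and 8.29 in CDEP. With OVA, Col5a1 measured 8.27, 7.97 and 8.15 in the OVA group, 8.12, 8.02 and 8.25 in NDEP with OVA, 8.52, 8.39 and 8.40 in ADEP with OVA, and 8.19, 7.79 and 8.14 in CDEP with OVA. The arrays of both states did not overlap in CDEP, met at the second decimal in saline and overlapped in NDEP and ADEP. OVA differences were -0.36, -0.29, -0.05 and -0.28, each ± 0.12, in saline, NDEP, ADEP and CDEP. On average Col5a1 fell by 0.25 ± 0.06 under OVA (95% interval -0.37 to -0.12, limma adjusted p = 0.029). The call was lost with any of 8 of the 24 arrays left out, OVA replicate 2, ADEP with OVA replicate 2, CDEP with OVA replicate 2, saline replicate 2, NDEP replicate 1, ADEP replicates 1 and 3 and CDEP replicate 2. The average then lay between -0.28 and -0.21, with a largest adjusted p of 0.0633. With heart and fat scores as covariates it was -0.34 (adjusted p = 0.11).

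Col3a1 encodes the only chain of type III collagen, found with type I in distensible tissue. Without OVA, Col3a1 measured 11.66, 11.34 and 11.28 log2 in saline, 11.60, 11.58 and 11.72 in NDEP, 11.61, 11.52 and 11.87 in ADEP, and 11.53, 11.41 and 11.59 in CDEP. With OVA, Col3a1 measured 11.37, 11.22 and 11.03 in the OVA group, 11.28, 11.57 and 11.60 in NDEP with OVA, 11.75, 11.65 and 11.38 in ADEP with OVA, and 11.14, 11.50 and 11.54 in CDEP with OVA. It was low on the OVA arrays, and the arrays of both states overlapped in each background. The OVA difference was -0.14 ± 0.07 (limma adjusted p = 0.314), with values below 0 in all 4 backgrounds.

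Col5a2, the second common chain of type V, was lowest in the OVA group as well. Without OVA, Col5a2 measured 9.02, 8.76 and 8.95 log2 in saline, 9.15, 9.06 and 9.04 in NDEP, 8.97, 8.97 and 9.17 in ADEP, and 8.81, 8.82 and 8.90 in CDEP. With OVA, Col5a2 measured 8.80, 8.75 and 8.47 in the OVA group, 8.86, 8.98 and 9.01 in NDEP with OVA, 9.02, 9.11 and 8.94 in ADEP with OVA, and 8.65, 8.85 and 9.11 in CDEP with OVA. OVA replicate 3 was the lowest of the 24 arrays, as it was for Col3a1, and both states overlapped except in NDEP. The averaged OVA difference was -0.09 ± 0.05 (limma adjusted p = 0.444). Cartilage collagens of the fibrillar class had averages of -0.01 ± 0.05 for Col2a1, 0.00 ± 0.06 for Col11a1 and 0.01 ± 0.08 for Col11a2. Of these, Col11a1 was dim in all 8 groups and Col11a2 in 7, so their values do not show whether these genes respond.

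**Figure D2:**
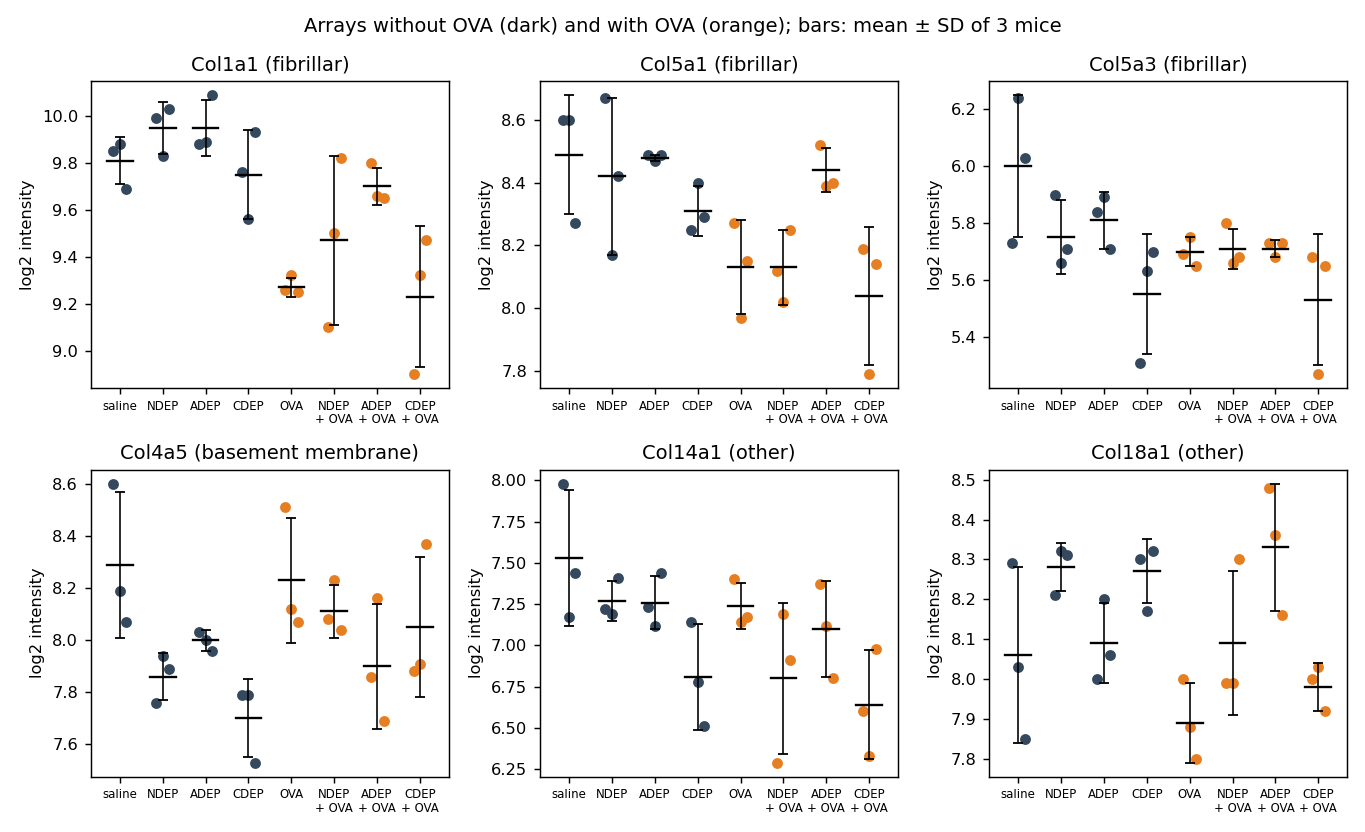
Log2 intensity (vertical axis) of the 6 collagen genes that passed in at least 1 comparison, by group (horizontal axis). Points are arrays, dark without and orange with OVA, lines are group means and bars SD (n = 3). Col1a1 lies lower with OVA in each background, and Col4a5 and Col14a1 are highest in saline.

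Markers of other cells moved in the same comparison, in which 0.912% of all genes were called higher and 1.56% lower. Of 15 heart muscle genes measured, 0 rose and 7 fell with OVA, with a median of -0.44. Their mean level per array was 7.98 to 8.68 in saline and 7.88 to 8.09 in OVA, which overlapped. It was 7.63 to 8.17 in NDEP and 7.31 to 7.66 with OVA added, which also overlapped. Without overlap it was 7.94 to 8.61 in ADEP and 7.52 to 7.79 with OVA, and 7.60 to 7.92 in CDEP and 7.07 to 7.43 with OVA. Among 12 fibroblast genes 0 rose and 5 fell, with a median of -0.09. The 5 were Fbln1 at -0.39 ± 0.07, Cygb at -0.39 ± 0.07, Clec3b at -0.40 ± 0.07, Dpt at -0.37 ± 0.08 and Pi16 at -0.21 ± 0.05, the last losing its call in 8 of the 24 fits with an array left out. Pdgfra of the same list lay above 0, at 0.16 ± 0.11, and did not pass. In the smooth muscle list Cnn1 fell by 0.37 ± 0.07 and 9 of 10 did not pass. Of 7 macrophage genes 2 rose, Chil3 by 1.42 ± 0.17 and Mrc1 by 0.40 ± 0.07, and of 9 skeletal muscle genes Ckm fell, by 0.42 ± 0.09. Fat genes had a median of -0.16 with 0 of 7 called. Cartilage genes had 0 of 9 called, and their mean level of 4.53 to 4.82 log2 was close to the 25th percentile of the arrays. The part of these cells in the collagen differences was not tested. Heart muscle genes themselves fell with OVA, so the fit with heart and fat scores cannot decide it.

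Col4a5 and Col14a1 were called lower and Col18a1 higher in lungs given particles, on the probe sets used. Averaged over the 3 particles with and without OVA, 1 collagen gene was called higher and 2 lower of 36, beside 10.4% of all genes called in either direction, 7.01% higher and 3.44% lower. Col4a5, a chain of alveolar and glomerular basement membranes, fell 1.25-fold, and Col14a1, which lies on the surface of fibrils, fell 1.32-fold. The other Col4a5 probe set, not dim at a mean of 7.91 log2, stood at -0.10 ± 0.09 (limma adjusted p = 0.583 over all probe sets). Col18a1, a basement membrane collagen that is cut to release endostatin, rose 1.15-fold, a call kept in 9 of the 24 fits with an array left out. The median of the 36 genes was -0.02 and that of all genes 0.00.

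Col4a5 (Entrez gene 12830) forms a network with the a3 and a4 chains in the alveolar wall. Without OVA, Col4a5 measured 8.60, 8.19 and 8.07 log2 in saline, 7.76, 7.94 and 7.89 in NDEP, 8.03, 8.00 and 7.96 in ADEP, and 7.79, 7.79 and 7.53 in CDEP. With OVA, Col4a5 measured 8.51, 8.12 and 8.07 in the OVA group, 8.08, 8.23 and 8.04 in NDEP with OVA, 7.86, 8.16 and 7.69 in ADEP with OVA, and 7.88, 7.91 and 8.37 in CDEP with OVA. Without OVA every particle array lay below every saline array, while with OVA the particle arrays overlapped the OVA arrays. The 18 arrays with particles ran from 7.53 through a median of 7.92 to 8.37, and the 6 arrays without from 8.07 through 8.16 to 8.60. All 6 particle contrasts were below 0, and the average was -0.32 ± 0.08 (95% interval -0.50 to -0.15, limma adjusted p = 0.0141). It did not pass without saline replicate 1 or without OVA replicate 1, the highest arrays for this gene, at -0.24 at the closest to 0, nor with heart and fat scores as covariates, at -0.30 (adjusted p = 0.158).

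Col14a1 (Entrez gene 12818) encodes the chain of collagen XIV, a FACIT on fibril surfaces. Without OVA, Col14a1 measured 7.98, 7.17 and 7.44 log2 in saline, 7.22, 7.19 and 7.41 in NDEP, 7.23, 7.12 and 7.44 in ADEP, and 7.14, 6.78 and 6.51 in CDEP. With OVA, Col14a1 measured 7.40, 7.14 and 7.17 in the OVA group, 6.29, 7.19 and 6.91 in NDEP with OVA, 7.37, 7.12 and 6.80 in ADEP with OVA, and 6.60, 6.33 and 6.98 in CDEP with OVA. Saline replicate 1 was the highest of the 24 arrays and NDEP with OVA replicate 1 the lowest, and particle arrays overlapped their controls except for CDEP, which lay below saline, and CDEP with OVA, which lay below OVA. All 6 particle contrasts were below 0, at an average of -0.40 ± 0.12 (95% interval -0.66 to -0.15, limma adjusted p = 0.0342). Single contrasts were -0.72 ± 0.21 for CDEP (limma adjusted p = 0.0543) and -0.60 ± 0.21 for CDEP with OVA against OVA (limma adjusted p = 0.118). The averaged call was lost without OVA replicate 1, 2 or 3, CDEP with OVA replicate 2 or saline replicate 1 or 3, and lay between -0.50 and -0.29 over all arrays left out. With heart and fat scores it was -0.29 (adjusted p = 0.361).

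Col18a1 (Entrez gene 12822) was higher in all 6 particle contrasts. Without OVA, Col18a1 measured 8.29, 8.03 and 7.85 log2 in saline, 8.21, 8.32 and 8.31 in NDEP, 8.00, 8.20 and 8.06 in ADEP, and 8.30, 8.17 and 8.32 in CDEP. With OVA, Col18a1 measured 8.00, 7.88 and 7.80 in the OVA group, 7.99, 7.99 and 8.30 in NDEP with OVA, 8.48, 8.36 and 8.16 in ADEP with OVA, and 8.00, 8.03 and 7.92 in CDEP with OVA. Values were low in the OVA group and high in ADEP with OVA, which did not overlap, whereas ADEP alone overlapped saline. The average was 0.20 ± 0.06 (95% interval 0.07 to 0.33, limma adjusted p = 0.0444), and that of ADEP with OVA against OVA 0.44 ± 0.11 (limma adjusted p = 0.0643). With each of the 24 arrays left out in turn the average ran from 0.15 to 0.26. The call was kept in 9 of these 24 fits, those without OVA replicate 1, NDEP with OVA replicate 1 or 2, ADEP with OVA replicate 3, CDEP with OVA replicate 3, saline replicate 1, NDEP replicate 1, ADEP replicate 1 or CDEP replicate 2, and lost in the other 15. It was also lost with all probe sets in the fit, with renewed quantile normalization, with RNA quality covariates and with heart and fat scores, where it was 0.11 (adjusted p = 0.531).

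Of the fibrillar genes, Col3a1 and Col5a2 had the highest averages, 0.23 ± 0.08 (limma adjusted p = 0.0539) and 0.18 ± 0.06 (limma adjusted p = 0.0743), and limma called 0 of 9, with 3 at an unadjusted p below 0.05. All 6 particle contrasts of Col3a1 were above 0. Col1a1 had 0.14 ± 0.08 and Col1a2 0.01 ± 0.06. Among transmembrane collagens, Col17a1, a component of hemidesmosomes, had an average of -0.24 ± 0.09 (limma adjusted p = 0.0935). Its levels in saline were 5.16, 5.13 and 4.69, and its group means with particles alone lay at 4.53 to 4.56. Col17a1 was dim in 2 groups, ADEP and CDEP, and lay above the 25th percentile on 18 of the 24 arrays. The size of its fall is therefore bounded by background. At an unadjusted p below 0.05 stood 10 of the 36 genes, 3 higher and 7 lower, beside 23.5% of all genes.

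In the particle comparison 7.01% of all genes were called higher and 3.44% lower, beside which the called genes of each cell list are given. Of 12 fibroblast genes 0 rose and 6 fell, with a median of -0.29, and 0 of 15 heart muscle genes rose and 9 fell, with a median of -0.49. Pericyte genes gave 0 rose and 3 fell of 8, endothelial genes 0 and 3 of 10, and fat genes 0 and 2 of 7. Neutrophil genes rose in 6 of 6, with a median of 0.82, and macrophage genes in 3 of 7. Among epithelial genes 2 of 6 of alveolar type 2 cells and 1 of 6 of alveolar type 1 cells rose, with medians of 0.07 and 0.08, and 2 of 4 of club cells fell, with a median of -0.20. Of 9 skeletal muscle genes 1 fell, and of 10 smooth muscle genes 1 fell. The part of these cells in the differences of Col4a5, Col14a1 and Col18a1 was not tested. Heart muscle and fat genes themselves fell after particles, so the fit with their scores cannot decide it.

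Basement membrane collagens as a class gave 1 call in the averages, that of Col4a5. Col4a1 and Col4a2 encode the chains of the common type IV network, and their genes lie head to head. Without OVA, Col4a1 measured 11.07, 10.73 and 10.89 log2 in saline, 11.15, 10.94 and 10.97 in NDEP, 10.62, 10.78 and 10.95 in ADEP, and 10.89, 10.85 and 10.81 in CDEP. With OVA, Col4a1 measured 10.82, 10.91 and 10.71 in the OVA group, 10.80, 11.11 and 11.12 in NDEP with OVA, 11.08, 11.06 and 10.79 in ADEP with OVA, and 10.67, 11.08 and 11.09 in CDEP with OVA. No group stood apart from the others for Col4a1. Without OVA, Col4a2 measured 10.65, 10.94 and 10.60 log2 in saline, 11.15, 10.90 and 10.66 in NDEP, 10.53, 10.66 and 10.66 in ADEP, and 10.66, 10.71 and 10.85 in CDEP. With OVA, Col4a2 measured 10.58, 10.79 and 10.48 in the OVA group, 10.40, 10.76 and 10.82 in NDEP with OVA, 10.73, 10.82 and 10.60 in ADEP with OVA, and 10.67, 10.88 and 10.79 in CDEP with OVA. For Col4a2 the highest array was NDEP replicate 1 and the lowest NDEP with OVA replicate 1, so the spread within groups was as wide as that between them. Averaged differences were 0.05 ± 0.06 with OVA and 0.08 ± 0.07 with particles for Col4a1, and -0.06 ± 0.06 and 0.06 ± 0.07 for Col4a2.

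Col4a3 encodes another chain of the alveolar network. Without OVA, Col4a3 measured 7.73, 7.84 and 8.08 log2 in saline, 8.07, 8.16 and 8.17 in NDEP, 7.29, 8.02 and 7.74 in ADEP, and 8.42, 8.34 and 7.76 in CDEP. With OVA, Col4a3 measured 8.19, 8.50 and 8.16 in the OVA group, 8.04, 8.25 and 8.32 in NDEP with OVA, 8.22, 8.33 and 7.92 in ADEP with OVA, and 8.16, 8.32 and 7.97 in CDEP with OVA. The lowest arrays were ADEP replicates 1 and 3 and saline replicate 1, and the OVA arrays lay above the saline arrays without overlap. Its averaged OVA difference was 0.23 ± 0.08 (limma adjusted p = 0.171), in the direction opposite to Col1a1. Col4a4 averaged -0.19 ± 0.07 with particles, below 0 in all 6 contrasts (limma adjusted p = 0.075), and Col4a6 -0.08 ± 0.07.

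Type VI chains, which form beaded filaments near cells, were called in none of the 18 comparisons. Without OVA, Col6a1 measured 10.17, 9.73 and 9.71 log2 in saline, 9.86, 9.92 and 9.73 in NDEP, 9.79, 9.84 and 9.73 in ADEP, and 9.80, 9.66 and 9.65 in CDEP. With OVA, Col6a1 measured 9.83, 9.92 and 9.80 in the OVA group, 9.75, 10.00 and 10.19 in NDEP with OVA, 9.97, 10.04 and 9.84 in ADEP with OVA, and 9.73, 9.84 and 9.98 in CDEP with OVA. Saline replicate 1 and NDEP with OVA replicate 3 were the highest Col6a1 arrays, and groups overlapped. Without OVA, Col6a2 measured 10.39, 10.24 and 10.02 log2 in saline, 10.08, 10.13 and 10.05 in NDEP, 9.86, 10.19 and 9.95 in ADEP, and 10.05, 9.72 and 10.06 in CDEP. With OVA, Col6a2 measured 10.10, 10.28 and 9.93 in the OVA group, 10.04, 10.26 and 10.29 in NDEP with OVA, 10.13, 10.45 and 10.25 in ADEP with OVA, and 10.08, 10.10 and 10.25 in CDEP with OVA. For Col6a2 CDEP had the lowest group mean and ADEP with OVA the highest, and their arrays did not overlap. Without OVA, Col6a3 measured 10.12, 9.77 and 9.69 log2 in saline, 9.66, 9.84 and 10.00 in NDEP, 9.78, 9.83 and 9.82 in ADEP, and 9.83, 9.81 and 9.62 in CDEP. With OVA, Col6a3 measured 9.85, 9.81 and 9.45 in the OVA group, 9.92, 9.69 and 9.83 in NDEP with OVA, 9.97, 10.00 and 9.88 in ADEP with OVA, and 9.73, 9.55 and 10.04 in CDEP with OVA. OVA replicate 3 was the lowest Col6a3 array and saline replicate 1 the highest. The OVA averages were 0.11 ± 0.06 for Col6a1, 0.12 ± 0.06 for Col6a2 and 0.00 ± 0.06 for Col6a3, none of which passed. Col6a3 stayed within 0.25 log2 over the 8 group means.

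Col13a1 is a transmembrane collagen of cell contacts. Without OVA, Col13a1 measured 8.91, 8.39 and 8.36 log2 in saline, 8.12, 8.45 and 8.28 in NDEP, 7.82, 8.35 and 7.93 in ADEP, and 8.34, 7.77 and 8.24 in CDEP. With OVA, Col13a1 measured 8.41, 8.64 and 8.16 in the OVA group, 7.91, 8.43 and 8.25 in NDEP with OVA, 8.68, 8.31 and 8.01 in ADEP with OVA, and 8.02, 8.23 and 8.46 in CDEP with OVA. Saline replicate 1 was its highest array and CDEP replicate 2 its lowest, and the ADEP and CDEP arrays lay below the saline arrays. The particle average was -0.28 ± 0.11, below 0 in all 6 contrasts (limma adjusted p = 0.117).

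Of the single particle comparisons, the one of CDEP with saline gave collagen calls. There, 0 were called higher and 2 lower of 36, beside 4.04% of all genes called in either direction, 2.28% higher and 1.76% lower. At an unadjusted p below 0.05 stood 6 collagen genes, all lower, beside 19.7% of all genes. Col4a5 fell by 0.58 ± 0.15 (limma adjusted p = 0.0267). Col5a3 (Entrez gene 53867), the least common type V chain, fell by 0.45 ± 0.12, 1.37-fold (limma adjusted p = 0.0387). Without OVA, Col5a3 measured 5.73, 6.24 and 6.03 log2 in saline, 5.90, 5.66 and 5.71 in NDEP, 5.84, 5.89 and 5.71 in ADEP, and 5.31, 5.63 and 5.70 in CDEP. With OVA, Col5a3 measured 5.69, 5.75 and 5.65 in the OVA group, 5.80, 5.66 and 5.68 in NDEP with OVA, 5.73, 5.68 and 5.73 in ADEP with OVA, and 5.68, 5.27 and 5.65 in CDEP with OVA. The CDEP arrays lay below the saline arrays for Col5a3, and saline replicate 2 was the highest of the 24. Col4a5 did not pass without saline replicate 1 or any 1 of the 3 CDEP arrays, and Col5a3 not without saline replicate 2 or 3 or CDEP replicate 1 or 2. Neither passed with only the compared groups in the fit, with RNA quality covariates or with heart and fat scores. RNA quality measures differed between these arrays, since the 3' minus 5' difference of the Gapdh controls was 0.12 to 0.68 log2 in saline and 0.00 to 0.12 in CDEP, and that of Actb 0.81 to 1.20 and 0.64 to 0.69. With RNA quality as covariate the differences were -0.46 for Col4a5 (adjusted p = 0.321) and -0.44 for Col5a3 (adjusted p = 0.328). With heart and fat scores they were -0.56 (adjusted p = 0.128) and -0.48 (adjusted p = 0.113). Fibroblast genes had a median of -0.32 in this comparison, heart muscle genes of -0.52 and fat genes of -0.41.

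After NDEP alone limma called 0 of 36 collagen genes, beside 2.7% of all genes, and 3 had an unadjusted p below 0.05, beside 15.5%. Col4a5 stood at -0.43 ± 0.15 and Col17a1 at -0.44 ± 0.16, with adjusted p-values of 0.13 and 0.145 in limma. ADEP alone gave 0 limma calls beside 1.65% of all genes, and 2 genes with an unadjusted p below 0.05, beside 15.6%, Col13a1 at -0.52 ± 0.19 and Col17a1 at -0.46 ± 0.16. Col17a1 was dim in the ADEP group. For OVA against saline limma called no gene at all, 0% of 12393, and 7 collagen genes had an unadjusted p below 0.05, beside 6.6% of all genes. They were Col1a1 at -0.53 ± 0.14, Col1a2 at -0.34 ± 0.11, Col5a1 at -0.36 ± 0.12, Col5a2 at -0.24 ± 0.11, Col5a3 at -0.30 ± 0.12, Col8a1 at -0.37 ± 0.16 and, above 0, Col4a3 at 0.40 ± 0.17. The 9 fibrillar genes had a median of -0.24 there, and all genes -0.02.

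Among OVA-treated mice limma called 0 collagen genes for NDEP, beside 2.07% of all genes, and 5 had an unadjusted p below 0.05, beside 11.6% of all genes. Counts for ADEP with OVA against OVA were 0 in limma, beside 0.686% of all genes, with 7 at an unadjusted p below 0.05, beside 11.4%. Of those, 5 were fibrillar and above 0, namely Col1a1 at 0.43 ± 0.14, Col3a1 at 0.39 ± 0.13, Col5a2 at 0.35 ± 0.11, Col1a2 at 0.33 ± 0.11 and Col5a1 at 0.31 ± 0.12. The fibrillar median was 0.31 beside 0.03 for all genes, with 8 of 9 above 0, while 42.3% of all genes lay below 0. For CDEP with OVA against OVA limma called 0 beside 4.79% of all genes, with 6 at an unadjusted p below 0.05, all below 0, beside 17.8%. The OVA arrays that serve as controls here are low for the fibrillar genes, as given above, so these values and those of OVA against saline share them.

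**Figure D3:**
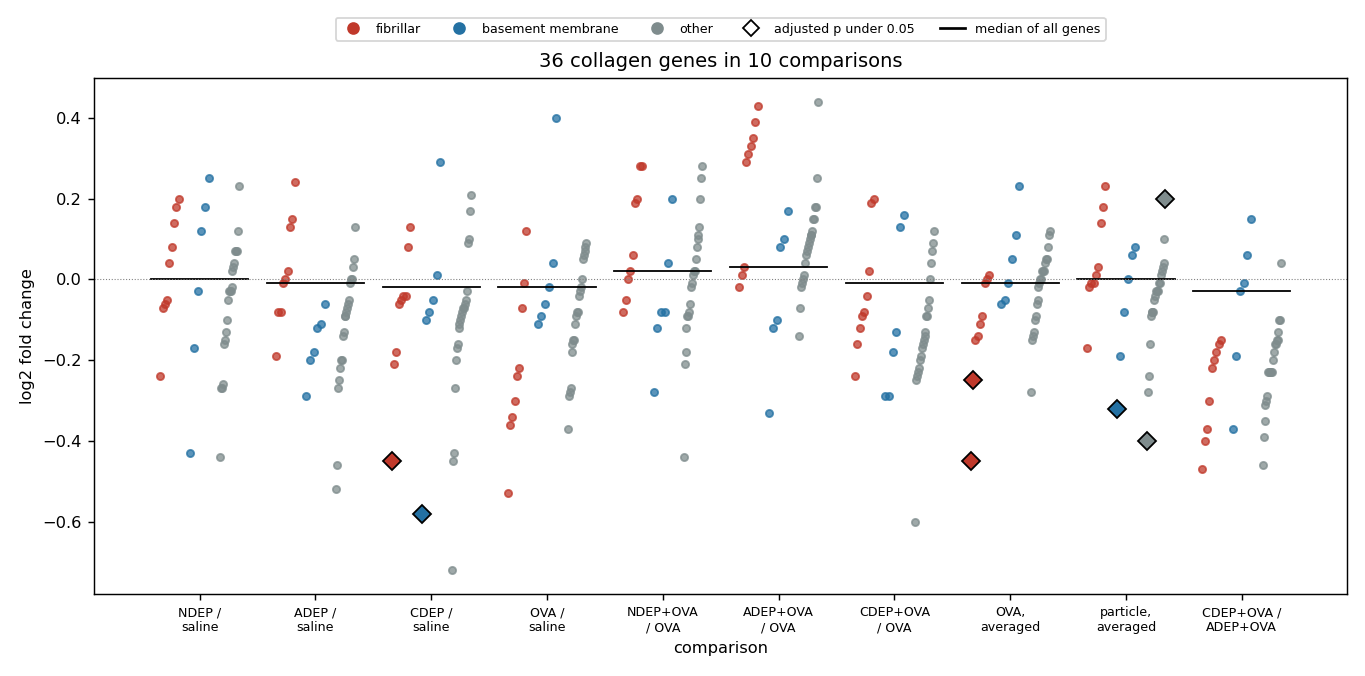
Log2 fold change (vertical axis) of 36 collagen genes in 10 comparisons (horizontal axis), each point a gene coloured by class. Diamonds passed an adjusted p of 0.05 in limma, and black lines are the median of all genes. Fibrillar genes lie mostly below 0 for OVA against saline, mostly above 0 for ADEP with OVA against OVA, and below 0 in 9 of 9 for CDEP with OVA against ADEP with OVA.

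Between CDEP with OVA and ADEP with OVA most collagen genes lay lower after CDEP, without passing the test. Here limma called 0 of 36 collagen genes, beside 1.43% of all genes, and 12 had an unadjusted p below 0.05, all lower after CDEP. Of all genes 21.2% had an unadjusted p below 0.05. In all, 33 of 36 lay lower after CDEP, with a median of -0.20, while 56% of all genes lay lower, with a median of -0.03. These 33 included the 5 genes dim in all 8 groups, Col19a1 at -0.31, Col11a1 at -0.22 and Col22a1 at -0.16 among them. The 25th percentile of the arrays was 4.55, 4.45 and 4.45 log2 in CDEP with OVA and 4.62, 4.54 and 4.61 in ADEP with OVA. Renewed quantile normalization, 1 of the alternative settings, gives the arrays equal percentiles. Over all alternative settings the collagen median lay between -0.21 and -0.19. Beyond these values, the part of the offset in the collagen differences was not tested. Col1a1 was at -0.47 ± 0.14 and Col5a1 at -0.40 ± 0.12 (both with a limma adjusted p of 0.0881), Col4a6 at -0.37 ± 0.12 and Col18a1 at -0.35 ± 0.11. The exceptions above 0 were Col4a2, Col4a5 and Col8a1, at 0.06, 0.15 and 0.04. With each array left out the collagen median stayed between -0.25 and -0.16. Heart muscle genes had a median of -0.43, smooth muscle genes of -0.34 and fibroblast genes of -0.31 in this comparison, with 1, 2 and 4 called lower. With heart and fat scores as covariates the collagen median was -0.21, with 29 of 36 genes below 0. The part of heart muscle cells, smooth muscle cells and fibroblasts was not tested. The 3' minus 5' difference of Gapdh was 0.19 to 0.58 log2 in CDEP with OVA and 0.09 to 0.26 in ADEP with OVA, and that of Actb 0.85 to 1.23 and 0.76 to 0.91. With RNA quality covariates the collagen median was -0.20, with 32 of 36 below 0. By array, the median deviation of the 36 genes from their means over all arrays was lowest on CDEP with OVA replicate 2, at -0.22, and highest on ADEP with OVA replicate 1, at 0.16.

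Against NDEP with OVA, CDEP with OVA gave 33 of 36 collagen genes lower, at a median of -0.11, while 56% of all genes lay lower, at a median of -0.02. These 33 also included the 5 genes dim in all 8 groups. Limma called 0 there, beside 0.00807% of all genes, with 2 at an unadjusted p below 0.05, beside 7.33%. ADEP with OVA against NDEP with OVA gave 0 limma calls, beside 0.0161%, and 4 at an unadjusted p below 0.05, all higher, beside 10.8%. Without OVA, limma called 0 collagen genes for ADEP against NDEP (0.00807% of all genes), CDEP against NDEP (0%) and CDEP against ADEP (0%), with 2, 3 and 4 at an unadjusted p below 0.05, beside 4.56%, 5.92% and 6.68% of all genes. The interactions of NDEP, ADEP and CDEP with OVA each gave 0 limma calls, beside 0.0242%, 0.0242% and 0.371% of all genes, and 0, 4 and 1 collagen genes at an unadjusted p below 0.05, beside 6.16%, 10.4% and 12.7%. For ADEP by OVA 32 of 36 collagen genes lay above 0, with a median of 0.18 beside 0.04 for all genes, of which 43% lay below 0. With heart and fat scores as covariates the collagen median was 0.07.

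Other probe sets of the same genes were read as a second measurement. Of the 36 genes 19 had more than 1, with 22 other probe sets, 11 of them dim. In the OVA average 16 of 22 had the same sign as the probe set used, and in the particle average 17 of 22. For CDEP against saline 11 of 22 had the same sign, and for CDEP with OVA against ADEP with OVA 16 of 22. The second Col1a1 probe set fell by 0.22 ± 0.06 (limma adjusted p = 0.0451 over all probe sets), where the one used gave -0.45. That of Col1a2 stood at -0.27 ± 0.08 (adjusted p = 0.068), below the -0.15 of the one used. For Col5a1 the other probe sets gave -0.10 and -0.02 and did not pass. In the particle average the other Col14a1 probe set fell by 0.33 ± 0.09 (adjusted p = 0.029) and that of Col3a1 rose by 0.44 ± 0.13 (adjusted p = 0.0273). Those of Col18a1 at 0.18 ± 0.07 (adjusted p = 0.144) and Col4a5 at -0.10 ± 0.09 (adjusted p = 0.583) did not pass, and neither probe set was dim. For CDEP against saline the other probe sets of Col4a5 and of Col5a3, the latter dim, lay at -0.05 and 0.01. The calls of Col4a5, Col5a1, Col5a3 and Col18a1 were made by 1 probe set each.

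**Figure D4:**
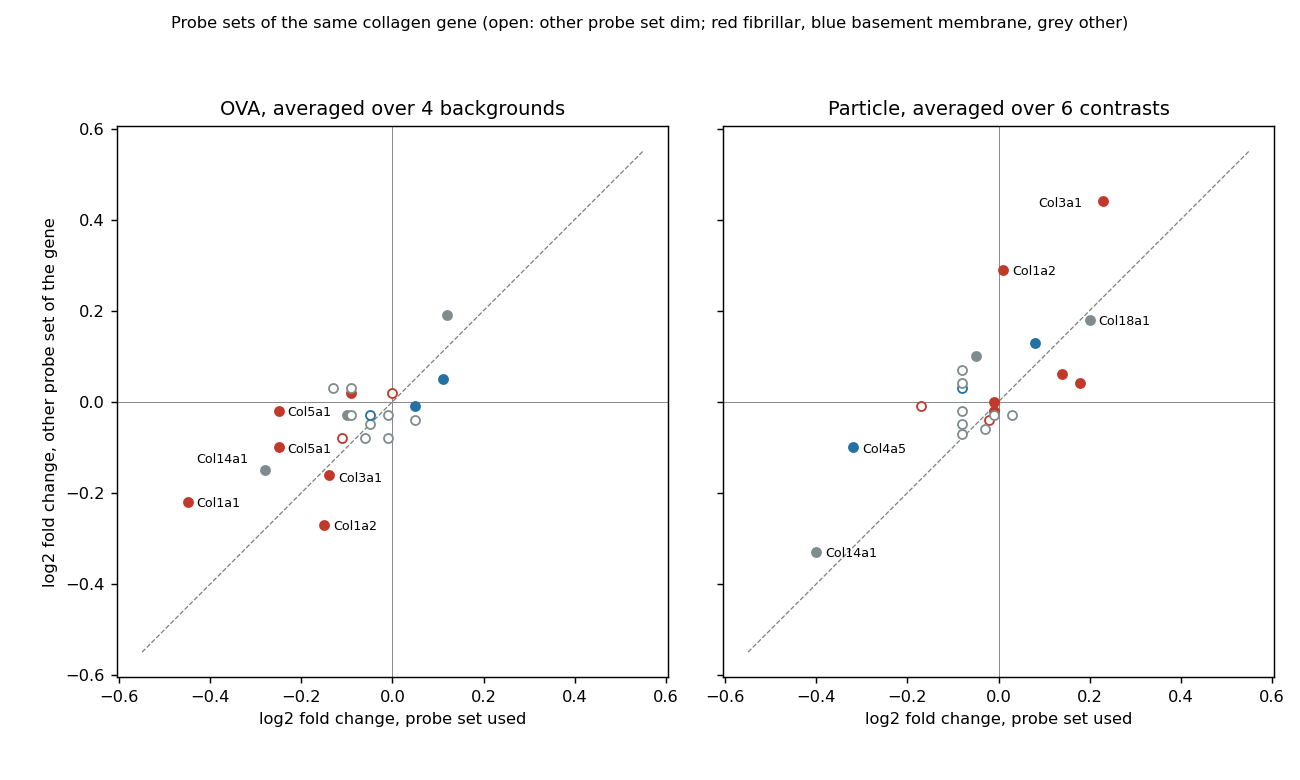
Log2 fold change of the probe set used (horizontal axis) and of each other probe set of the same gene (vertical axis), for OVA (left) and particles (right), averaged. Each point is 1 of 22 other probe sets, open where it is dim, and the dashed line marks equal values. Col1a1 and Col14a1 lie in the same direction for both probe sets, and the other probe sets of Col5a1 and Col4a5 lie nearer to 0.

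Chains that assemble into the same molecule were compared over the 24 arrays, which share groups and preparation. The permutations moved values among all 24 arrays regardless of group, so their p-values also count differences between groups. For deviations from group means r alone was computed. Col1a1 and Col1a2 of type I had a Pearson r of 0.84 and a Spearman rho of 0.75 (permutation p = 1e-05 and 6.00e-05, adjusted over 7 pairs 3.50e-05 and 0.00014). The first is the smallest p that the 100000 permutations can give. With the 2 arrays farthest from the median left out r was 0.75, and for deviations from group means it was 0.86. Col6a1 and Col6a2 had r = 0.75 and rho = 0.82 (permutation p = 4.00e-05 and 1e-05, adjusted 9.33e-05 and 3.50e-05), 0.71 without the 2 arrays and 0.66 within groups. The type III and type V genes Col3a1 and Col5a2, which share fibrils, had r = 0.86 and rho = 0.82 (permutation p = 1e-05 for both, adjusted 3.50e-05), 0.76 without the 2 arrays and 0.77 within groups.

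Col4a1 and Col4a2 followed each other less, with r = 0.53 and rho = 0.51 (permutation p = 0.0067 and 0.0106, adjusted 0.0117 and 0.0186), 0.38 without the 2 arrays and 0.49 within groups. Type V chains Col5a1 and Col5a2 had r = 0.39 and rho = 0.39 (permutation p = 0.0632 and 0.0634, adjusted 0.0884 and 0.0887), 0.32 without the 2 arrays and 0.03 within groups. For Col4a3 with Col4a4 r was -0.02 and rho -0.06 (permutation p = 0.934 and 0.787, adjusted 0.934 and 0.801), -0.18 without the 2 arrays. Col4a5 with Col4a6 gave r = -0.08 and rho = -0.05 (permutation p = 0.702 and 0.801, adjusted 0.819 and 0.801), -0.06 without the 2 arrays. The median r over all 630 pairs of collagen genes, pairs with dim genes included, was 0.15.

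Genes whose products fold, cut or bind collagen were described with the same tests. Of 17 enzymes and chaperones of collagen synthesis, 5 rose and 0 fell in the particle average, with a median of 0.17, beside 7.01% of all genes higher and 3.44% lower and a median of 0.00. Serpinh1, the chaperone specific to procollagen, measured 10.10, 10.61 and 10.26 in saline, 10.22, 9.93 and 10.20 in OVA, and 10.33 to 11.10 over the 6 particle groups. Saline replicate 2 overlapped the particle arrays, and the OVA arrays lay below them all. Serpinh1 rose by 0.50 ± 0.08 (limma adjusted p = 0.000282). The general chaperones Hspa5 and Pdia3 rose by 0.53 ± 0.07 and 0.48 ± 0.07 and the prolyl isomerase Ppib by 0.27 ± 0.05. The 5 called genes kept their call with each array left out. The 5 cross-linking enzymes gave 0 calls in limma, with 0 at an unadjusted p below 0.05, and of 5 procollagen proteinases and enhancers Pcolce2 fell, by 0.50 ± 0.14 (limma adjusted p = 0.0197), a call lost without OVA replicate 2 or saline replicate 1.

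Among 14 collagen-degrading proteases and uptake receptors 5 rose and 0 fell after particles, beside 7.01% and 3.44% of all genes, with a median of 0.15. Cathepsin Ctsk, which cuts the triple helix, measured 7.56, 7.50 and 7.40 in saline and 9.49, 9.12 and 8.67 in NDEP, and rose by 1.18 ± 0.13 (2.27-fold, limma adjusted p = 1.37e-06). The macrophage elastase Mmp12 rose by 1.33 ± 0.16, the stromelysin Mmp3 by 0.37 ± 0.11 and the collagenase Mmp8 by 0.28 ± 0.08. Mmp8 did not pass without OVA replicate 1, OVA replicate 2, saline replicate 2 or saline replicate 3. Mmp3 did not pass without OVA replicate 2, OVA replicate 3, CDEP with OVA replicate 2, saline replicate 2, NDEP replicate 3, ADEP replicate 3 or CDEP replicate 3. The fifth, the membrane-bound Mmp14, rose by 0.17 ± 0.06 (limma adjusted p = 0.0473) and lost its call in 19 of the 24 fits with an array left out. The protease inhibitor Timp1 rose 4.74-fold, by 2.25 ± 0.20 (limma adjusted p = 1.20e-07), and Timp2 fell by 0.24 ± 0.05, of 4 in that family. Of 6 collagen receptors Adgrg1 rose, by 0.28 ± 0.06.

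Of 14 proteins bound to fibrils 1 rose and 5 fell after particles, with a median of -0.19, beside 7.01% of all genes higher and 3.44% lower. The proteoglycan Dcn, which coats type I fibrils, measured 10.27, 9.59 and 10.13 in saline and 8.38, 8.41 and 8.86 in CDEP with OVA. It fell by 0.57 ± 0.12 after particles (limma adjusted p = 0.00171) and by 0.60 ± 0.10 with OVA (limma adjusted p = 0.0011), and was the member of this list called with OVA. Ogn fell by 0.66 ± 0.13, Lum by 0.47 ± 0.12, the elastic fibre protein Eln by 0.35 ± 0.09 and Omd by 0.32 ± 0.07, while the adhesive protein Thbs1 rose by 0.52 ± 0.12. Lum did not pass without saline replicate 1, nor Eln without OVA replicate 2. Of 15 basement membrane partners of type IV collagen the laminin chain Lama2 fell, by 0.32 ± 0.07. In the TGF-beta pathway, which drives collagen genes, 4 of 19 rose and 3 fell, among them Tgfbi at 0.56 ± 0.10, Tgif1 at 0.34 ± 0.07 and Ltbp1 at -0.30 ± 0.07, which kept their calls with each array left out, while each of the other 4 lost it in at least 2 such fits. With OVA, Hspa5 rose by 0.26 ± 0.06 and the proteases Mmp19 and Mmp3 fell by 0.24 ± 0.06 and 0.39 ± 0.10, with Mmp3 losing its call in 8 of the 24 fits with an array left out. Limma called 0 genes with OVA among cross-linking enzymes, procollagen proteinases, TIMP inhibitors, receptors, the 15 basement membrane partners and the 19 genes of the TGF-beta pathway. In that order 0, 0, 0, 1, 3 and 2 had an unadjusted p below 0.05. Of all genes 2.47% were called with OVA, and 15.4% had an unadjusted p below 0.05.

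**Figure D5:**
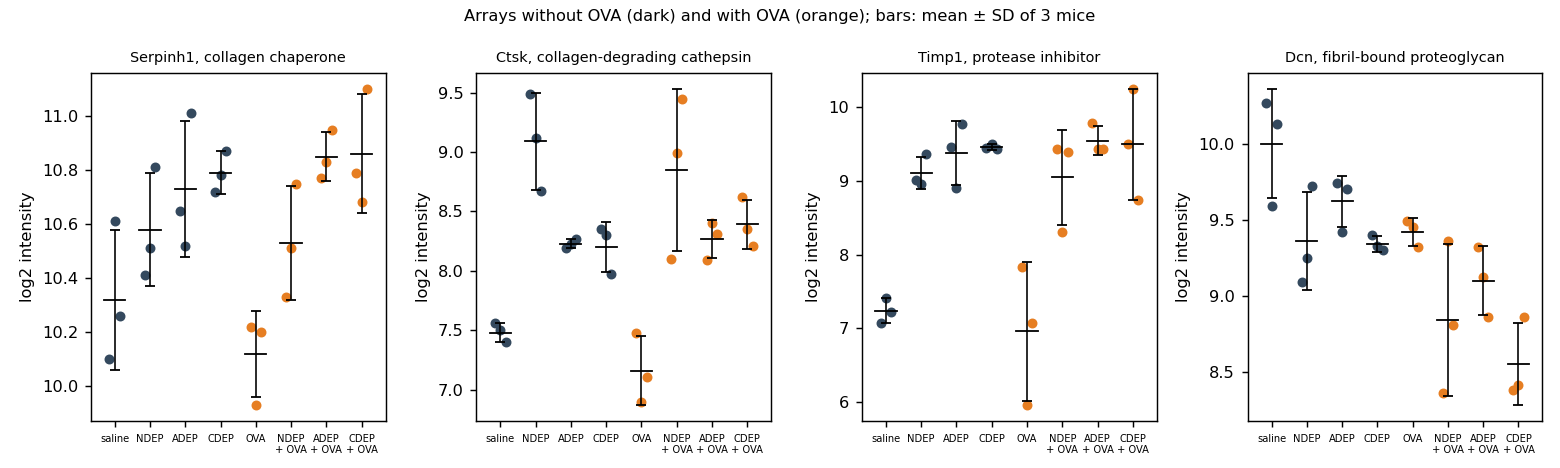
Log2 intensity (vertical axis) of 4 genes that act on collagen, by group (horizontal axis). Points are arrays, dark without and orange with OVA, lines are group means and bars SD (n = 3). Serpinh1, Ctsk and Timp1 are higher in the 6 particle groups than in saline and OVA, and Dcn is lowest in CDEP with OVA.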

How the data were processed

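Lung RNA from 24 mice was measured on Affymetrix arrays, with 2 ug total RNA labelled per array per the labels' protocols. The deposited values were made by the authors with RMA, per the submitters' processing notes; the RMA version was not given in the sources used here. The deposited intensity values are on a linear scale (5.98 to 18195.5), although the design of the tests had assumed log2, so log2 was taken here and the log2 values of the deposited table were analysed. RMA shrinks low differences and forces equal distributions across arrays, so a shift of all genes cannot be seen.

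Of 22690 probe sets 64 controls were left out, 20380 had a single symbol, 691 several and 1555 none, and 12393 genes remained with 1 probe set each. A limma model (version 3.58.1, R 4.3.3) with 8 group means gave 18 comparisons with 16 residual and 8.16 prior degrees of freedom, two-sided, with Benjamini-Hochberg adjustment over all genes in each comparison. The model was run on 5 simulated tables of the CDEP and saline comparison over 12393 genes, 200 of which were changed. There it found 78.2% at 1.5-fold, 97.6% at 2-fold and 100% at 4-fold, with 4.75% false calls. How often it finds changes below 1.5-fold, where all averaged collagen calls lay, was not tested. Values by array are given for collagen genes called in at least 1 comparison and for the 4 of highest mean level in each class, and up to 4 genes of smallest p per partner list are named; Lum, Eln and Mmp14 were named beyond that after their values were seen. The members, lists and tests were chosen with earlier results of these data known.

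Alternatives were all probe sets in the fit, a filter on dim genes, renewed quantile normalization, trended robust variance, only the compared groups, a replicate block, covariates for RNA quality (3' minus 5' control probe sets) or for the mean heart muscle and fat marker levels, and each array left out. The other probe sets of called genes and the collagen medians under each alternative were added after seeing the data. No 2 arrays held the same values, since at most 0.0353% of values were identical between any pair. Only mouse sex, strain and age shared by all groups were given, and no batch was given in the sources used here.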

Additional observations from a re-analysis of the deposited data

How the results depend on the processing

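Counts of called collagen genes were recomputed in 142 combinations of a comparison and an alternative, and 134 stayed within 1.5 times the reported count. The other 8 were these: with only the compared groups, CDEP against saline had 0 and CDEP with OVA against OVA had 1 (Col14a1); with RNA quality covariates, CDEP against saline had 0 and ADEP with OVA against OVA had 1 (Col18a1), as it did with renewed quantile normalization, 1. With heart and fat covariates, CDEP against saline had 1 and the particle average 1 (both Col17a1), and the OVA average had 0. Col17a1 was dim in the ADEP and CDEP groups. The cause was not tested. Of the 18 comparisons 15 had 0 reported calls, so their counts could change only by a gain. The loss of Col18a1 from the particle average with all probe sets, renewed quantile normalization or RNA quality covariates stayed within the 1.5-fold limit. All 7 reported calls were lost with heart and fat covariates. On its other probe set, which is dim, Col5a3 reversed to 0.01 for CDEP against saline (adjusted p = 0.967).

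With each array left out, counts ran from 0 to 1 for NDEP against saline, 0 to 2 for CDEP against saline, 0 to 1 for ADEP with OVA against OVA, 1 to 2 for the OVA average and 1 to 5 for the particle average, and stayed at 0 in the other 13 comparisons. The particle count was 5 without NDEP with OVA replicate 1, and 1 (Col4a5) without OVA replicate 2, OVA replicate 3 or CDEP with OVA replicate 2.

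The replicate numbers were not taken to pair the arrays, since 27 of 84 same-number correlations passed 0.1, in a range of -0.32 to 0.35 with a median of 0.03, beside -0.01 for other numbers. Of the 24 arrays 14 correlated best with their own number, which is a hint from the data and not the design. With the replicate number as a block the counts were 2 for the OVA average, 3 for the particle average and 2 for CDEP against saline, as without the block, and 0 in the other 15 comparisons. Precision is limited by 3 arrays a group, and the dim genes have no level shown above background.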
